A study of Mus musculus with 9 samples.

Results

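Transcript levels of 10 genes of the retinal vasculature were compared across the 3 genotypes of a bulk RNA-seq experiment on whole mouse retina at postnatal day 21 (P21). The genes were chosen by name. They are Vegfa, a secreted growth factor, its receptors Kdr and Flt1, the angiopoietin receptor Tek, the endothelial adhesion genes Pecam1 and Cdh5, the barrier genes Cldn5, Slco1a4 and Mfsd2a, and Plvap, a gene of leaky vessels. Each of the 10 symbols matched a single row of the 55487 genes in the table, and all 10 passed the filter on low values, which 21330 genes passed.

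The Cre- retinas, labelled WT, were from a separate Cre-free breeding of the same age. Triple heterozygous retinas (tHet) carried 1 loxp allele each of Tet1, Tet2 and Tet3 together with the Chx10::Cre-GFP transgene, and triple conditional knockout retinas (Tet tcKO) carried loxp on both alleles of all 3 genes with the same transgene. TET enzymes oxidise methylated cytosine in DNA. All mice were C57 BL/6J by label, and each of the 3 libraries per genotype held the retinas of 2 animals. The Chx10 promoter drives Cre in retinal progenitors, from which the retinal neurons and Müller glia arise, whereas endothelial cells enter the retina from outside and are not their descendants. The transgene is known to be mosaic, and the tHet and Tet tcKO mice were therefore bred to carry 2 functional copies of it. Because Cre- mice came from separate breeders, genotype, the presence of Cre and breeding line cannot be told apart in comparisons with Cre-.

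The inner retina is fed by vessels whose endothelial cells are sealed by tight junctions, and the photoreceptors are fed by the fenestrated vessels of the choroid behind the pigment epithelium. Vegfa is released by retinal neurons and glia under low oxygen and signals through Kdr (VEGF receptor 2). Flt1 (VEGF receptor 1) binds Vegfa more tightly and signals less, and its soluble form acts as a decoy. Norrin, helped by Tspan12, signals through Fzd4 and Lrp5, and Wnt7 ligands signal with the help of Adgra2 and Reck; both raise beta-catenin in endothelial cells and keep the barrier closed, and angiopoietins act on Tek to stabilise or loosen vessels.

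Reads assigned to genes ranged from 9627927 to 21108256 per library. Values are CPM, read counts scaled to a common library total, in which 1 read was worth 0.0474 to 0.104 CPM. CPM are shares of a library, so fewer endothelial cells and less RNA per endothelial cell cannot be told apart. They also do not separate endothelial reads from reads of other cells in the retina. The cell types that the reads of the vascular genes came from were not tested. The Tet tcKO library of replicate 3 stood apart: the ribosomal RNA gene CT010467.1 took 28.7% of its reads, against 0.0409% to 3.72% in the other libraries, which lowers every other value in it. With this gene left out of the library totals, the median log2 difference over all tested genes between Tet tcKO and Cre- was 0.14, against 0 on the deposited scale. Of the targeted genes, Tet3 averaged 235 ± 29.2 CPM in Cre- retinas and fell to 120 ± 28.2 CPM with the triple knockout (SD, n = 3, log2 fold change -0.99, limma adjusted p 0.0174). Tet1 (54.6 and 64.2 CPM) and Tet2 (156 and 184 CPM) did not pass the test, and gene-level values hold reads from exons outside the deleted part. Rod markers were abundant and endothelial markers were detected in every library, as the whole-retina label implies.

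Per kilobase of exon in the Cre- retinas, Vegfa had the highest level of the 10 genes, 29.8 ± 7.37 CPM per kb (SD, n = 3). The VEGF receptors followed, Kdr at 15.2 ± 2.39 CPM per kb and Flt1 at 8.59 ± 2 CPM per kb. These 3 genes did not overlap each other across the Cre- libraries, and all of them lay above the other 7. Which cells the reads of these 3 genes came from was not tested. Changes of Kdr and Flt1 are therefore not given as changes of endothelial cells. The next 4 genes were Slco1a4 at 1.62, Pecam1 at 1.43, Cldn5 at 1.16 and Tek at 1.03 CPM per kb, and each of them overlapped its neighbour in this order. Plvap stood at 0.929, Cdh5 at 0.423 and Mfsd2a at 0.357 CPM per kb. Cdh5 and Mfsd2a overlapped, and Plvap overlapped Tek but not Cdh5. In Tet tcKO, Flt1 stood at 2.43 ± 1.28 CPM per kb, next to Cldn5 at 2.58 ± 1.18 CPM per kb, while Kdr stood at 22.4 ± 4.45 CPM per kb. None of the 10 genes shares exon sequence with another annotated gene on either strand.

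**Figure D1:**
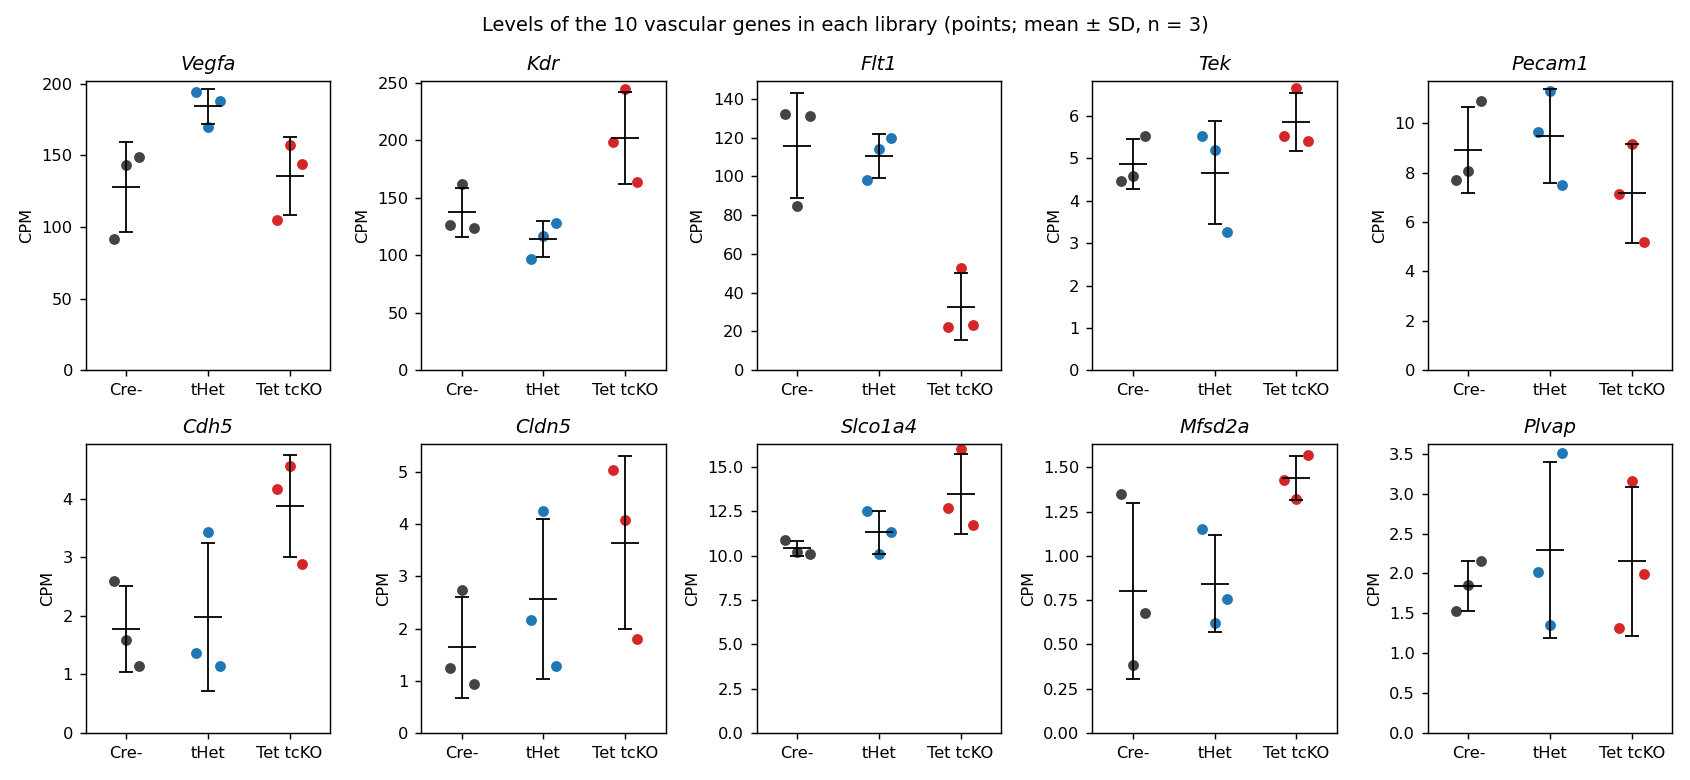
CPM of each of the 10 genes (linear axis from 0, separate scale per gene) in the 3 Cre-, 3 tHet and 3 Tet tcKO libraries; points are libraries, bars the mean ± SD. Flt1 in Tet tcKO lies at 22.4 to 52.8 CPM, below all 6 control libraries, and Kdr at 164 to 244 CPM lies above all 6; the other 8 genes overlap at least 1 control genotype.

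Between Tet tcKO and Cre- retinas, Flt1 fell and no other gene of the 10 passed the test. The stricter rule called a gene whose log2 fold change was 1 or more in size with a limma adjusted p under 0.01, and the weaker rule a gene with an adjusted p under 0.05, both adjusted over all tested genes. By the stricter rule 1 of 10 was called, where 3.60% of all tested genes were, and by the weaker rule the same gene, where 6.50% were. Against tHet, Flt1 was again called by the stricter rule (background 3.00% of tested genes), and by the weaker rule Flt1 fell and Kdr rose (background 5.95%). Between tHet and Cre-, 0 of 10 were called by limma at either rule (backgrounds 0.0422% and 0.0938%), edgeR and DESeq2 also called 0, and 1 gene, Vegfa, had an unadjusted limma p under 0.05. The tests of Tet tcKO against the 2 control genotypes share the Tet tcKO libraries.

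Without regard to a test, every Tet tcKO library lay above every Cre- library for Cdh5, Kdr and Slco1a4, 3 of 10, where 10.0% of all tested genes did. Flt1 was the 1 gene of 10 below, where 9.60% were. Against tHet, Kdr and Mfsd2a lay above (background 7.35%) and Flt1 and Vegfa below (background 9.68%). Vegfa in tHet lay above every Cre- library (background 5.78%), and no gene of the 10 lay below (background 5.37%). Against all 6 control libraries together, Kdr was the 1 gene above (background 5.32%) and Flt1 the 1 gene below (background 4.82%). The median log2 difference over the 10 genes was 0.30 for Tet tcKO against Cre- and 0.28 against tHet, beside 0 and -0.06 over all tested genes. It was 0.09 for tHet against Cre-, beside 0.06 over all tested genes.

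**Figure D2:**
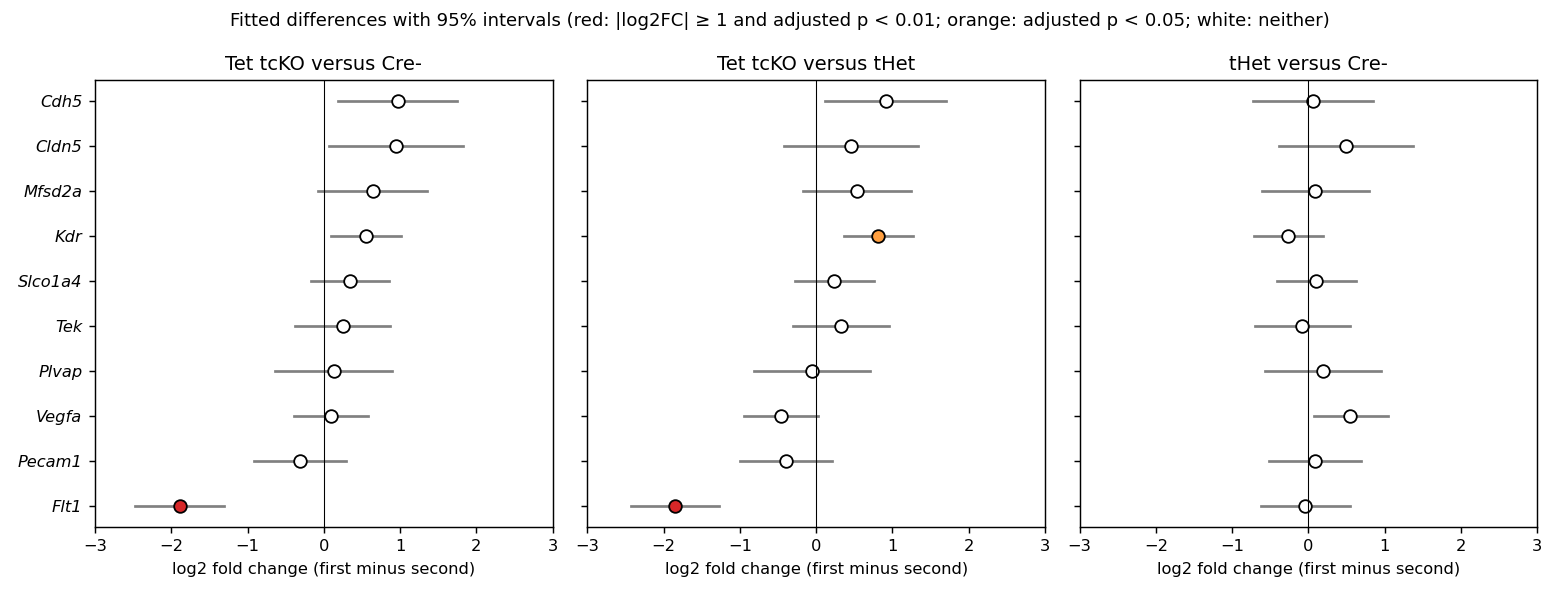
Log2 fold change (x axis, first genotype minus second) of the 10 genes with limma 95% intervals in the 3 comparisons; red passed the stricter rule, orange the weaker rule, white neither. Flt1 sits at -1.89 and -1.85 in the Tet tcKO comparisons and at -0.04 between the controls, and Kdr is orange only against tHet, at 0.81.

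Flt1 (ENSMUSG00000029648.13, chr5:147561604-147726011, GRCm38, minus strand, protein coding) measured 132, 84.8 and 131 CPM in the Cre- libraries of replicates 1 to 3 and 98.1, 114 and 120 CPM in the tHet libraries. In Tet tcKO it measured 22.4, 52.8 and 23.3 CPM. The highest Tet tcKO library, replicate 2, remained below the lowest control library, Cre- replicate 2. The mean fell from 116 ± 27 CPM in Cre- and 111 ± 11.3 CPM in tHet to 32.9 ± 17.3 CPM (SD, n = 3), which was 3.71-fold below Cre- in the fit (log2 fold change -1.89 ± 0.28 SE, limma adjusted p 1.6e-04) and 3.6-fold below tHet (-1.85 ± 0.28 SE, limma adjusted p 2.5e-04). The controls differed from each other by -0.04 (95% interval -0.62 to 0.54). These values rest on 378 to 2527 reads per library. Without the Tet tcKO library of replicate 3, the log2 fold changes were -1.71 and -1.66, with limma adjusted p 0.0112 and 0.0146, so that Flt1 passed the weaker rule and not the stricter one. The gene-level value sums the membrane-bound and soluble forms of Flt1.

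Kdr (ENSMUSG00000062960.10, chr5:75932827-75978458, minus strand) measured 126, 162 and 124 CPM in Cre- and 97, 117 and 128 CPM in tHet. In Tet tcKO it measured 198, 244 and 164 CPM. The lowest Tet tcKO library, replicate 3, lay just above the highest control, Cre- replicate 2. The means were 137 ± 21.6, 114 ± 15.5 and 202 ± 40.2 CPM (SD, n = 3). Kdr rose 1.76-fold over tHet (log2 fold change 0.81 ± 0.22 SE, limma adjusted p 0.0288). Over Cre- the log2 difference was 0.55 (95% interval 0.09 to 1.01, limma adjusted p 0.179), which did not pass. The call against tHet was lost without Cre- replicate 3 (adjusted p 0.0527), tHet replicate 1 (0.205), tHet replicate 2 (0.0657), Tet tcKO replicate 1 (0.104) or Tet tcKO replicate 2 (0.113) in the limma fit. With CT010467.1 left out of the totals, Kdr passed the weaker rule against both controls, at log2 differences of 0.71 (limma adjusted p 0.0138) and 0.96 (limma adjusted p 0.00304).

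The 2 receptor genes thus moved in opposite directions against tHet, and their start regions are shown because TET enzymes act at CpG, the 2-base site of DNA methylation. Each run is the RefSeq window of 250 bases before to 50 bases after the annotated start on GRCm38.p6, written 5' to 3' on the gene's own strand, with every CpG in capitals. Flt1 lies at chr5:147725962-147726261 and Kdr at chr5:75978406-75978705, and Slco1a4 at chr6:141856171-141856470 is shown as the window with the fewest CpG among the 7 of 10 genes with a window, all on the minus strand.
Flt1: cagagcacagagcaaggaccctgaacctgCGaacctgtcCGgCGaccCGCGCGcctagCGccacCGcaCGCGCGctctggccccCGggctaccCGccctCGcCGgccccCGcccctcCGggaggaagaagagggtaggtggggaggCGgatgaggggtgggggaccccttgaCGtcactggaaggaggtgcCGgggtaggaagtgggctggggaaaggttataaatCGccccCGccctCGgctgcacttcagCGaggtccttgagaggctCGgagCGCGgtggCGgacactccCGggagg
Kdr: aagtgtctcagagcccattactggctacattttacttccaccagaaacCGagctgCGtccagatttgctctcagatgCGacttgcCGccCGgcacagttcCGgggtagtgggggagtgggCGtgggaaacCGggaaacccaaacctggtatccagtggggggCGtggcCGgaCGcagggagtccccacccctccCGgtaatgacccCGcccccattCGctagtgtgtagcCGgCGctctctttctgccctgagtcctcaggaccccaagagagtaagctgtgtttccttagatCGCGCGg
Slco1a4: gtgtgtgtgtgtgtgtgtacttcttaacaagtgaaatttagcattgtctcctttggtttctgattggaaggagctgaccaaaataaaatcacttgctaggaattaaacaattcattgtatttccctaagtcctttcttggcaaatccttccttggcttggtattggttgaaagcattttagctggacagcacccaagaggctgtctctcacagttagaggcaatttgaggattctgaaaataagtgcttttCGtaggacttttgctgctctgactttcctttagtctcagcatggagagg
The Flt1 window held 29 CpG, more than 87.1% of 32851 mouse promoter windows of the same length, whose median was 7 (quartiles 3 and 20). The Kdr window held 19 CpG and the Slco1a4 window 1. Mfsd2a held 22, Cldn5 12 and Tek 3, and the 2 windows of Vegfa held 16 and 10. Pecam1, Cdh5 and Plvap were not matched to a window. DNA methylation was not analysed here, so these counts describe the sequence alone.

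5 short motifs were searched on both strands of these windows. GCGTG, a form of the hypoxia response core found in 32.4% of all windows, occurred 1 time in Flt1, 2 times in Kdr, 2 times in Mfsd2a and 1 time in the second Vegfa window. ACGTG, the other form (19.6% of windows), occurred 2 times in Mfsd2a and 1 time in the second Vegfa window, and none of the matches of these 2 forms overlapped in the windows searched. TATAAA, the TATA box (13.6%), occurred 1 time, in Flt1. CCGGAAG, an ETS factor core (8.86%), and GGATTA, a site of CRX-type homeobox factors of photoreceptors (7.06%), did not occur in any of the matched windows.

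Within each library the ratio of the receptors is independent of the library total. The ratios below were chosen after the values were seen and are given as a description. Kdr over Flt1 was 0.949, 1.91 and 0.947 in Cre- and 0.989, 1.03 and 1.07 in tHet. In Tet tcKO it was 8.84, 4.62 and 7.03, above all 6 controls. Flt1 over Pecam1, a pan-endothelial gene, was 10.1 to 17.2 in the controls and 3.15, 5.77 and 4.5 in Tet tcKO. Kdr over Pecam1 was 10.1 to 20.1 in the controls and 27.9, 26.6 and 31.7 in Tet tcKO. Both receptors therefore shifted against Pecam1 in every Tet tcKO library, Flt1 downward and Kdr upward. The fitted difference from Cre- was -0.31 for Pecam1 itself and 0.55 for Kdr. It was larger than that of Kdr for Cdh5 (0.97), Cldn5 (0.95) and Mfsd2a (0.64). For Slco1a4 (0.34), Tek (0.25) and Plvap (0.13) it was smaller. The direction of a Kdr ratio thus depends on the gene it is divided by.

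**Figure D3:**
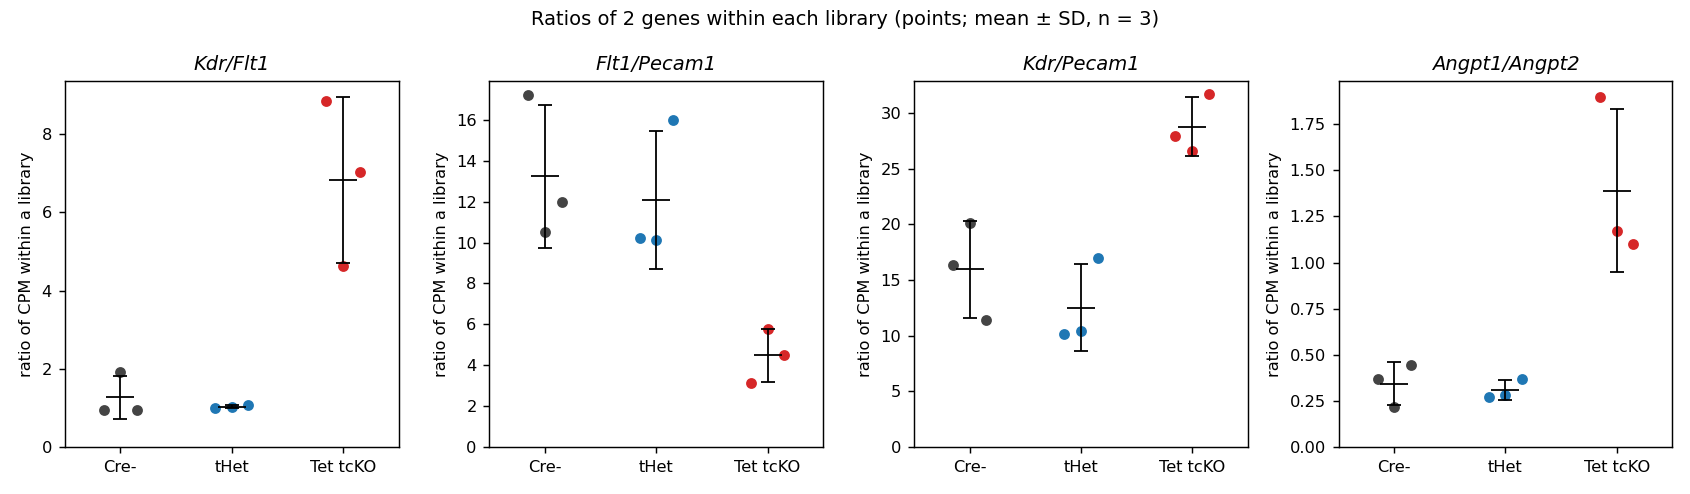
Ratio of the CPM of 2 genes within each library (y axis, linear from 0) by genotype; points are libraries, bars the mean ± SD (n = 3). Kdr/Flt1 averages 1.27, 1.03 and 6.83 in Cre-, tHet and Tet tcKO, and in all 4 ratios the Tet tcKO libraries lie outside the range of the 6 controls.

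Vegfa (ENSMUSG00000023951.18, chr17:46016993-46032369, minus strand), the ligand, measured 91.5, 143 and 149 CPM in Cre- and 194, 170 and 188 CPM in tHet. In Tet tcKO it measured 105, 157 and 144 CPM. All 3 tHet libraries were above all others, and Tet tcKO and Cre- overlapped. Means were 128 ± 31.6, 184 ± 12.2 and 135 ± 27.4 CPM (SD, n = 3). The log2 difference between Tet tcKO and Cre- was 0.09 (95% interval -0.39 to 0.58), and between Tet tcKO and tHet -0.46 (-0.94 to 0.02, limma adjusted p 0.316). Between tHet and Cre- it was 0.55 (0.07 to 1.04), with an unadjusted p of 0.0267 and an adjusted p of 1 in the limma fit. Flt1 over Vegfa was 0.506 to 1.45 in the controls and 0.162 to 0.336 in Tet tcKO.

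Tek (chr4:94739289-94874976, plus strand) measured 4.47, 4.58 and 5.54 CPM in the Cre- libraries, 5.54, 5.19 and 3.27 in tHet and 5.52, 6.66 and 5.42 in Tet tcKO. The genotypes overlapped, with tHet replicate 3 the lowest library and Tet tcKO replicate 2 the highest. The log2 difference from Cre- was 0.25 (95% interval -0.38 to 0.87) and from tHet 0.33 (-0.30 to 0.95).

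Pecam1 (chr11:106654217-106750628, minus strand), which encodes CD31 at endothelial contacts, measured 7.71, 8.08 and 10.9 CPM in the Cre- libraries, 9.65, 11.3 and 7.49 in tHet and 7.13, 9.16 and 5.18 in Tet tcKO. The lowest value was that of Tet tcKO replicate 3 and the genotypes overlapped. The log2 difference was -0.31 from Cre- (95% interval -0.92 to 0.29) and -0.40 from tHet (-1 to 0.21). Cdh5 (chr8:104101625-104144511, plus strand), VE-cadherin of the adherens junction, measured 2.59, 1.59 and 1.15 CPM in the Cre- libraries, 1.37, 3.43 and 1.14 in tHet and 4.16, 4.55 and 2.89 in Tet tcKO. The Tet tcKO libraries all exceeded those of Cre-, but tHet replicate 2 lay above Tet tcKO replicate 3. The log2 differences of 0.97 (limma adjusted p 0.165) and 0.91 (limma adjusted p 0.194) did not pass, with 95% intervals of 0.18 to 1.75 and 0.12 to 1.70.

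Of the barrier genes, Cldn5 (chr16:18776847-18778262, plus strand), the main claudin of the endothelial tight junction, measured 1.24, 2.74 and 0.945 CPM in the Cre- libraries, 2.16, 4.26 and 1.28 in tHet and 5.05, 4.09 and 1.81 in Tet tcKO. The 3 genotypes overlapped, with Tet tcKO replicate 3 within the range of both controls. Its log2 difference from Cre- was 0.95 (95% interval 0.07 to 1.83, limma adjusted p 0.253) and from tHet 0.46 (-0.42 to 1.34). Slco1a4 (chr6:141805440-141856199, minus strand), an organic anion transporter of barrier endothelium, measured 10.9, 10.2 and 10.1 CPM in the Cre- libraries, 12.5, 10.1 and 11.3 in tHet and 12.7, 16 and 11.7 in Tet tcKO. The Tet tcKO libraries lay above Cre- without overlap and overlapped tHet, and the log2 differences were 0.34 (-0.17 to 0.86) and 0.24 (-0.28 to 0.76).

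Mfsd2a (chr4:122946850-122961188, minus strand), a lipid transporter that restrains transcytosis in barrier endothelium, measured 1.35, 0.382 and 0.675 CPM in the Cre- libraries, 1.15, 0.623 and 0.758 in tHet and 1.43, 1.32 and 1.57 in Tet tcKO. Tet tcKO lay above tHet, and Cre- replicate 1 reached into the Tet tcKO range. These values stand on 6 to 26 reads, and the log2 differences of 0.64 (95% interval -0.07 to 1.35) and 0.54 (-0.17 to 1.25) did not pass. Plvap (chr8:71497765-71511752, minus strand), which forms the diaphragms of fenestrated endothelium and is high in immature or leaky vessels, measured 1.53, 1.85 and 2.16 CPM in the Cre- libraries, 2.02, 1.35 and 3.51 in tHet and 1.31, 3.16 and 1.99 in Tet tcKO. The genotypes overlapped throughout. The log2 difference was 0.13 from Cre- (-0.64 to 0.89) and -0.06 from tHet (-0.82 to 0.70). At 13 to 74 reads per library, smaller differences than these intervals allow were not detectable.

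Among 28 other endothelial genes, 25 passed the filter, and 2 rose and 0 fell by the stricter rule in Tet tcKO against both controls, where 3.60% and 3.00% of all tested genes were called. A single called gene in one of the short lists that follow is given as a gene and not as a property of its list. The 2 genes were Sox7, an endothelial transcription factor, and Cyyr1. Sox7 rose from 0.235, 0.509 and 0.473 CPM in Cre- and 0.72, 0.104 and 0.332 CPM in tHet to 4.16, 5.67 and 1.75 CPM (log2 fold change 2.16 over Cre-, limma adjusted p 0.00108). Cyyr1 rose from 1.41 to 1.82 CPM in Cre- and 1.04 to 1.22 CPM in tHet to 11.2, 10.8 and 5.96 CPM (log2 fold change 2.16 over Cre-, limma adjusted p 2.1e-04). For both genes the Tet tcKO libraries exceeded all 6 controls, and the exons of Cyyr1 overlap the annotated gene Gm2541 on the same strand. By the weaker rule, Robo4 (1.24, limma adjusted p 0.04) and Vwf (1.05, limma adjusted p 0.043) also rose against tHet, but not against Cre-, where their limma adjusted p were 0.153 and 0.766. Sox7 passed only the weaker rule without Tet tcKO replicate 1 (limma adjusted p 0.0127 and 0.0118) and with no filter on low values (0.016 and 0.0145). Robo4 lost its call without Cre- replicate 3, any tHet library, or Tet tcKO replicate 1 or 2 (limma adjusted p 0.0565 to 0.179), and in 8 of 20 alternatives in all. Vwf lost it without Cre- replicate 3, any tHet library or any Tet tcKO library (0.0542 to 0.177), and in 9 of 20 in all.

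Over the 25 genes the fitted difference was positive for 21 against Cre- and 19 against tHet, with medians of 0.34 and 0.35, and 11 of 25 were higher in tHet than in Cre-. The Tet tcKO libraries lay above all Cre- libraries for 10 of the 25 genes (background 10.0%) and below for 1, Ly6a (background 9.60%). They lay above all tHet libraries for 7 (background 7.35%) and below for 0 (background 9.68%). The list was chosen with earlier results of these data known, so these counts are given as a description. The summed level of the list was 66.8 to 77.8 CPM in the Cre- libraries and 62.6 to 85.1 in tHet. In Tet tcKO it was 75.9 to 125 CPM. On this scale Tet tcKO replicate 3 lay among the controls, but CT010467.1 took 28.7% of its reads, which lowers its sum. Sums without this gene in the totals were not computed. By limma on the deposited scale no gene of this list fell by either rule against either control. Ly6a, at means of 1.44 CPM for Cre- and 0.45 CPM for Tet tcKO, had a limma adjusted p of 0.0745 against Cre-, and passed the weaker rule with TMM scaling (0.0467), upper-quartile scaling (0.0463), the replicate block (0.0382) and DESeq2 (0.0379).

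Of 12 other genes of the VEGF, angiopoietin, Dll4 and Pdgfb pathways, all were tested and 1 rose, Angpt1, the activating ligand of Tek. It measured 2.35, 1.4 and 2.43 CPM in Cre- and 1.94, 2.39 and 2.7 CPM in tHet. In Tet tcKO it measured 9.14, 7.58 and 5.3 CPM, above all controls (log2 fold change 1.61 over Cre-, limma adjusted p 0.00322, and 1.44 over tHet, limma adjusted p 0.00902). Against Cre- it passed only the weaker rule without Cre- replicate 2 or 3 or Tet tcKO replicate 1 or 2 (limma adjusted p 0.0111 to 0.0343) and with no filter on low values (0.0134). Against tHet it did so without Cre- replicate 3, tHet replicate 2 or Tet tcKO replicate 2 or 3 (0.0155 to 0.0259), with no filter (0.0293) or with a pseudocount of 0.1 (0.0117), and passed neither rule without tHet replicate 1 (0.0615) or Tet tcKO replicate 1 (0.0797). Angpt2, the context-dependent antagonist, measured 5.47 to 8.41 CPM in the controls and 4.81 to 6.46 CPM in Tet tcKO and did not pass. Angpt1 over Angpt2 was 0.214 to 0.444 in the controls and 1.9, 1.17 and 1.1 in Tet tcKO. Nrp1, a VEGF co-receptor also found on neurons and chosen here after its values were seen, averaged 20.8 CPM in the Cre- libraries, 22.7 in tHet and 40.8 in Tet tcKO, with limma adjusted p 0.053 and 0.0828. It passed the weaker rule in 10 of 20 alternatives against Cre- and in 9 of 20 against tHet, among them TMM and upper-quartile scaling, CT010467.1 left out of the totals, edgeR and DESeq2. The other ligands of the family, Vegfb, Vegfc and Pgf, did not pass in either comparison.

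In the norrin and Wnt7 pathway, 11 of 13 genes were tested, and Lef1, a transcription factor of beta-catenin signalling, rose by the stricter rule. It measured 1.71, 3.12 and 1.76 CPM in the Cre- libraries, 3.53, 2.49 and 2.98 in tHet and 9.14, 12.3 and 7.89 in Tet tcKO. All Tet tcKO libraries lay above all controls (log2 fold change 1.95 over Cre-, limma adjusted p 4.9e-04, and 1.54 over tHet, limma adjusted p 0.00466). Against tHet it passed only the weaker rule without tHet replicate 1 or 2 or any Tet tcKO library (limma adjusted p 0.0146 to 0.0259) and with no filter on low values (0.0149). Lrp5, the co-receptor, rose by the weaker rule against Cre- (6.93 to 13.7 CPM on average, log2 fold change 0.92, limma adjusted p 0.0392), and lost that call without any of the Cre- libraries, tHet replicate 1 or Tet tcKO replicate 1 or 2 (0.0651 to 0.204) and with no filter (0.0532). None of the tested genes of this pathway fell by either rule in limma. The list's median log2 difference was 0.21 against Cre- and 0.29 against tHet, beside 0 and -0.06 over all tested genes. Axin2 (0.11 and 0.29) and Apcdd1 (0.33 and 0.34) of the same list passed neither rule.

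Of 19 junction, transporter and caveolar genes, 17 were tested, 0 rose and 1 fell by the stricter rule in both comparisons. Slc16a1, a monocarboxylate transporter, fell from 196 ± 17.6 CPM in Cre- and 170 ± 12.2 CPM in tHet to 82.9 ± 11.6 CPM (SD, n = 3, log2 fold change -1.24 from Cre-, limma adjusted p 4.8e-04). Against tHet it passed only the weaker rule without tHet replicate 1 or 2 or Tet tcKO replicate 1 or 3 (limma adjusted p 0.00609 to 0.0261), in the case of Tet tcKO replicate 3 because its log2 fold change was -0.92. With TMM scaling, CT010467.1 left out of the totals, edgeR and DESeq2, its log2 fold change from tHet was -0.97, -0.90, -0.97 and -0.98 and passed only the weaker rule. Its level lay far above that of Cldn5, and the list's median difference was 0.11 against Cre- and 0.18 against tHet. The glucose transporter Slc2a1, at 90.3 ± 16.3 CPM for Cre- and 97.2 ± 13.3 CPM for Tet tcKO, differed by 0.11 (95% interval -0.33 to 0.55).

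Of 14 hypoxia factors and targets, 12 were tested, 10 of them had lower fitted values in Tet tcKO than in Cre-, and none rose by either rule in limma. The list's median log2 difference was -0.54 from Cre- and -0.36 from tHet, beside 0 and -0.06 over all tested genes. This list, too, was chosen with earlier results of these data known. Ndrg1 fell from 168, 160 and 160 CPM in Cre- and 195, 266 and 180 CPM in tHet to 75.4, 87.4 and 63.8 CPM. It lay below all controls (log2 fold change -1.11 from Cre-, limma adjusted p 0.00214, and -1.49 from tHet, limma adjusted p 1.5e-04). By the weaker rule, Bnip3 (-0.93, limma adjusted p 0.0106) and the glycolysis regulator Pfkfb3 (-0.93, limma adjusted p 0.0205) fell against Cre- and not against tHet. Ndrg1 passed only the weaker rule against Cre- without Cre- replicate 3 or Tet tcKO replicate 1 or 3 (limma adjusted p 0.0103 to 0.0146), and with CT010467.1 left out of the totals, where its log2 fold change was -0.95. By the weaker rule 3 of 12 fell against Cre- (background 6.50%), 5 with TMM scaling, edgeR, DESeq2 or the replicate block, 6 with upper-quartile scaling, and 1 to 6 over all 20 alternatives. Bnip3 lost its call without Cre- replicate 1 or 3 (0.0546 and 0.0552), and Pfkfb3 without any Cre- library or Tet tcKO replicate 1 or 3 (0.0556 to 0.135). Vegfa, itself a textbook target of the same factors, did not pass in either comparison.

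Of 14 mural cell genes, 12 were tested, and the adhesion protein gene Vtn fell, from 234 ± 34.3 CPM in Cre- and 191 ± 23.7 CPM in tHet to 40.3 ± 25.1 CPM in Tet tcKO (SD, n = 3, log2 fold change -2.70, limma adjusted p 9.1e-06). Pdgfrb, the defining receptor of pericytes, measured 6.82 to 8.21 CPM in the controls and 5.6 to 8.04 CPM in Tet tcKO, a log2 difference from Cre- of -0.09 (95% interval -0.66 to 0.47). Rgs5, another pericyte gene, averaged 69.2, 81.1 and 111 CPM in Cre-, tHet and Tet tcKO and did not pass. Vtn was thus the 1 gene of this list that passed either rule. Both Vtn and Rgs5 stood on average far above Pdgfrb. The cell types that their reads came from were not tested, so the fall of Vtn is not given as a change of mural cells.

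**Figure D4:**
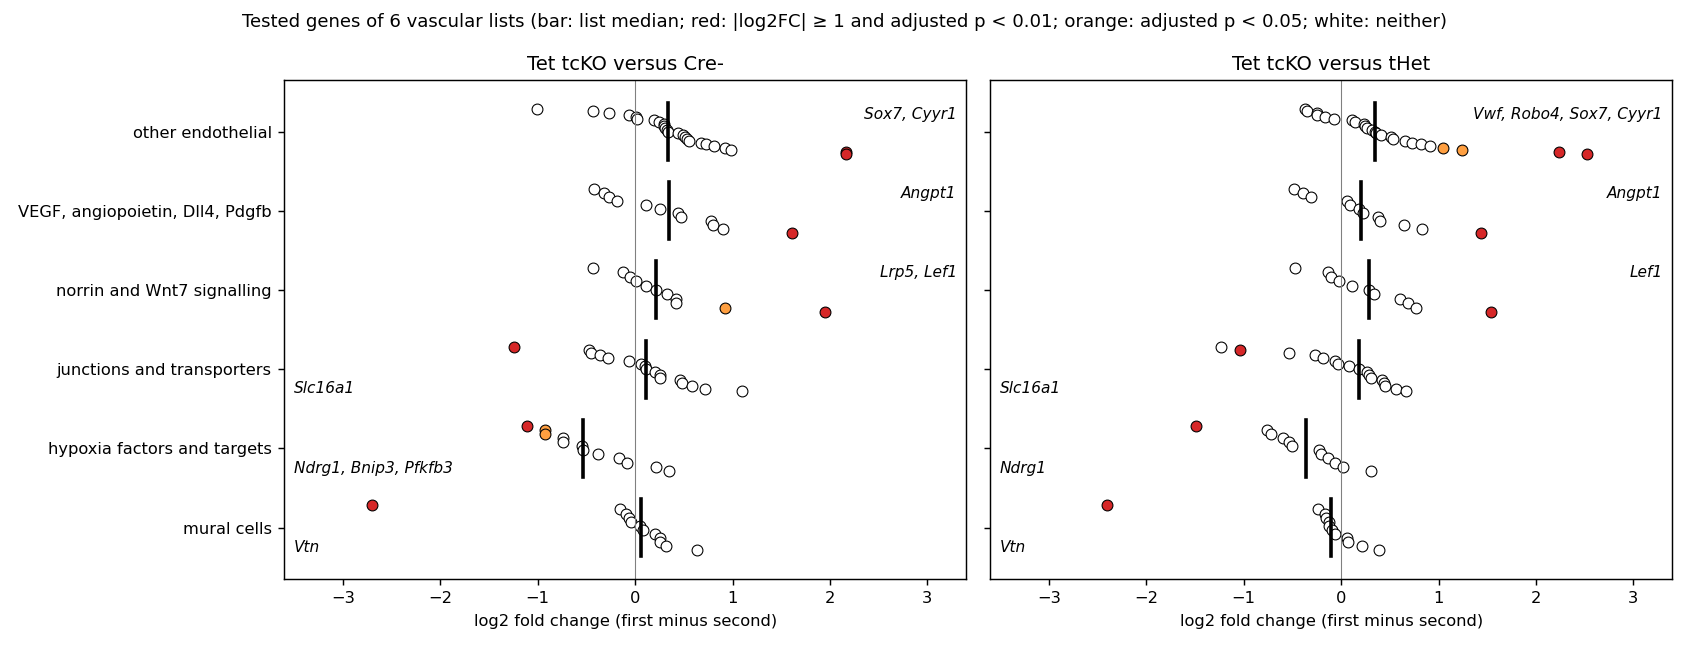
Log2 fold change (x axis) of every tested gene in 6 vascular gene lists (rows) for Tet tcKO against Cre- and against tHet; each point is a gene, the bar the list median, red the stricter rule, orange the weaker rule, and called genes are named in the row. Sox7, Cyyr1, Angpt1 and Lef1 lie on the right and Vtn, Slc16a1 and Ndrg1 on the left in both comparisons.

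The summed level of 7 rod photoreceptor markers was 30000 to 36200 CPM in the Cre- libraries, 26100 to 32500 in tHet and 3220, 10500 and 5300 in Tet tcKO. The Tet tcKO library with the highest rod level, replicate 2, was also the library with the highest Flt1, at 52.8 CPM, and with the highest Kdr, at 244 CPM. Of the 7 rod genes 6 fell by the stricter rule in both Tet tcKO comparisons, and the part of this loss in the change of Flt1 was not tested.

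**Figure D5:**
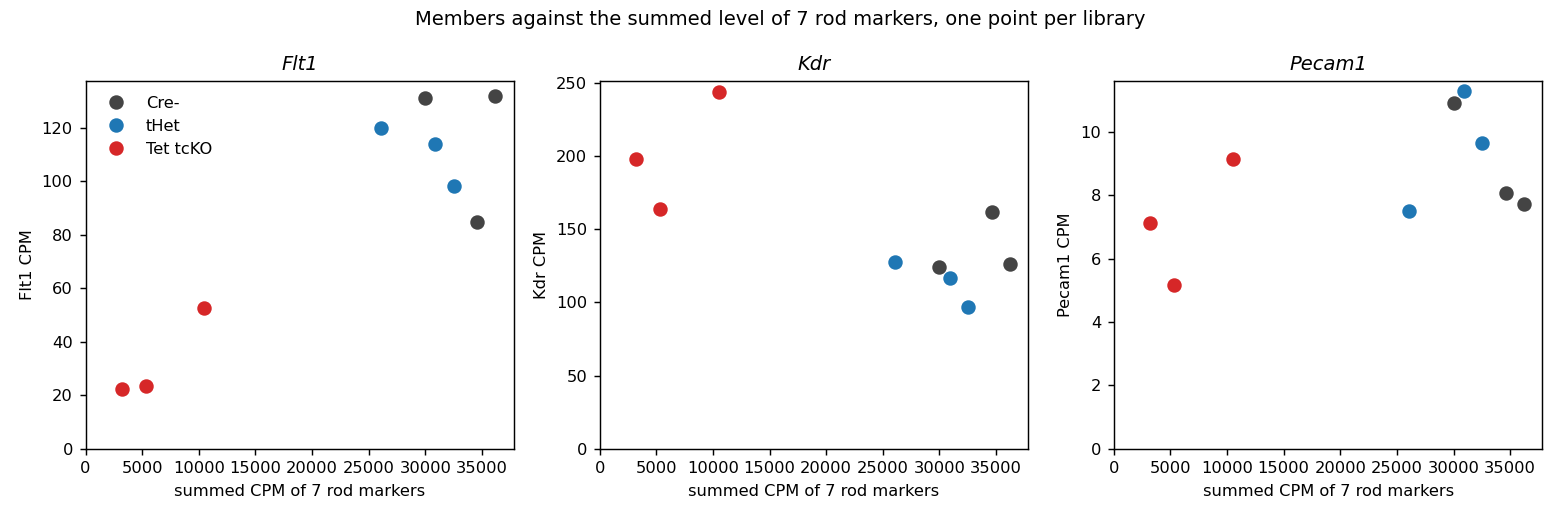
CPM of Flt1, Kdr and Pecam1 (y axes, linear from 0) against the summed CPM of 7 rod markers (x axis), 1 point per library, coloured by genotype. The Tet tcKO libraries sit at 3220 to 10500 CPM of rod markers, apart from the controls at 26100 to 36200 CPM; Flt1 is lower there, Kdr higher, and Pecam1 overlaps the controls.

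Markers of other cell types also moved between the genotypes. Of all tested genes, the stricter rule called 3.60% against Cre- and 3.00% against tHet, and the weaker rule 6.50% and 5.95%. Of 7 pigment epithelium genes tested, 2 fell by the stricter rule against Cre- and 4 against tHet (0 to 3 and 1 to 4 over 20 alternatives, with 0 against Cre- under TMM scaling, with no filter, and without Tet tcKO replicate 1 or 3), and their sum was 46.3 to 163 CPM in the Cre- libraries, 123 to 159 in tHet and 32.8 to 48 in Tet tcKO. Plvap, the diaphragm gene of fenestrated vessels, overlapped across the genotypes on 13 to 74 reads per library. Its 95% interval against Cre- was -0.64 to 0.89, and the share of choroidal vessels in the libraries was not tested. Of 5 fibroblast genes tested, 2 rose against Cre- and 1 against tHet by the stricter rule, with sums of 7.57 to 10.5, 14.7 to 27.1 and 25.1 to 48 CPM. Col1a2, called in both comparisons, averaged 3.32, 4.72 and 22.2 CPM in Cre-, tHet and Tet tcKO. Col1a1, the 1 of the 5 with a lower fitted value in Tet tcKO than in Cre-, averaged 2.42, 2.35 and 1.76 CPM. Fbln1, the other gene called against Cre-, averaged 1.19, 11.7 and 9.92 CPM. Fbln1 also rose in tHet over Cre- (log2 fold change 2.80, limma adjusted p 0.00357, not past the weaker rule in 4 of 20 alternatives). Of 5 red blood cell genes, Hba-a1 (log2 fold change -1.51, limma adjusted p 0.0301) and Hbb-bs (-1.41, limma adjusted p 0.0238) fell by the weaker rule against Cre- and lost that call in 8 and 7 of 20 alternatives, with sums of 32.8 to 51.5 CPM in the Cre- libraries, 25.6 to 52.6 in tHet and 15.7 to 32.9 in Tet tcKO. Of 7 microglia genes Cx3cr1 rose against Cre- (1.31, limma adjusted p 0.00935, past only the weaker rule in 9 and neither rule in 1 of 20 alternatives), with sums of 20.1 to 28.9, 27.8 to 39.4 and 32.6 to 65.2 CPM. Of 7 Müller glia genes Glul and Rlbp1 fell and Apoe rose by the stricter rule in both comparisons (Apoe not past that rule in 9 and 10 of 20 alternatives, Glul in 3 and 7, Rlbp1 in 0 and 1), with sums of 1980 to 2540, 1840 to 2270 and 1730 to 2220 CPM. The 5 astrocyte genes gave no call, with sums of 50.3 to 73.8, 75.6 to 227 and 72.1 to 196 CPM. The part of these markers in the vascular differences was not tested.

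After each genotype's mean was subtracted, the genes most like the mean of the 9 genes other than Vegfa over the 9 libraries, among 17304 genes outside the lists, were Cerk, Zswim7, Klhl30, Rbm20, Gfod1, Deptor, Cpne9, Pfkl, Cntn5 and Elmo1, at Pearson r of 0.96 to 0.98. Those most like Vegfa were Gm37017, Gm19327, Pnisr, Gm14164 and Gm26109, at r of 0.98. The libraries share their depth and total in these values, and with 9 libraries and so many candidates values of this size describe the ranking only.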

How the data were processed

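Total RNA from P21 whole retinas was depleted of ribosomal RNA and made into libraries with a stranded kit. The submitters' processing notes name Trim Galore 0.6.7, STAR 2.7.0f, SAMtools 1.9 and HTSeq 0.11.2 with the mm10 build. The annotation release and the strand setting of counting are not given in the sources used here. The authors deposited CPM, read counts per gene divided by the library total, with no further scaling between libraries. The authors also deposited log2 fold changes, log2 mean CPM and p-values of their own edgeR comparisons, which were not used. Low values were whole multiples of 1 read for 100% of positive values (tolerance 0.05 reads), so reads were recovered for the count tests.

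Groups and replicate numbers came from the sample labels. The main test was limma 3.58.1 in R 4.3.3 on log2(CPM + 0.5) with an intensity trend, over all 9 libraries and the 21330 genes that reached 0.5 CPM in 3 or more libraries, with Benjamini-Hochberg adjustment. Fold changes are on that scale and understate changes of genes with low CPM. Intervals are 95% limma intervals. Alternatives were pseudocounts of 0.1 and 1, other filters, TMM and upper-quartile scaling, totals without CT010467.1, edgeR 4.0.16 and DESeq2 1.42.0 on recovered reads, a replicate block, the 6 libraries compared only, and each library left out. The main limma fit, the replicate block, edgeR and DESeq2 were tested on simulated counts for Tet tcKO against Cre-, with the same dispersion for all genes. The other alternatives were not simulated. Libraries pool different animals, and nothing in the labels ties equal replicate numbers across genotypes. Exact permutation of 3 against 3 libraries cannot go below p = 0.1, so only fits across all genes were used as tests.

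The 10 genes and the gene lists were chosen with earlier results of these data known. All 10 genes are named. Genes of the vascular lists are named where they passed either call rule, except 1 gene of the junction and transporter list that is not reported here, and the cell type marker lists are given mainly as counts and sums. Other list genes named without a call (such as Angpt2, Slc2a1, Pdgfrb and Rgs5) were chosen after their values were seen. Positions are from GENCODE M21 (GRCm38), to which 55141 of 55487 identifiers matched without their version, and start windows are from RefSeq GRCm38.p6.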

Additional observations from a re-analysis of the deposited data

How the results depend on the processing

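Of 600 alternative values for the 30 log2 differences of the 10 genes (20 alternatives each), 570 kept their direction and side of the weaker rule, 22 changed sign, 6 lost and 2 gained a call. In limma some alternatives cannot change a log2 difference, only its adjusted p. They are the filters, the replicate block, the 6 libraries compared only, and leaving out a library of the genotype not compared. Their direction was therefore fixed in advance. Flt1 kept both direction and the weaker call in all 20, from -2.29 to -1.68 against Cre- and -2.25 to -1.64 against tHet. Its stricter call was lost in both comparisons without Tet tcKO replicate 3, so the stricter count ranged from 0 to 1 when libraries were left out. The weaker count against Cre- was 2 (Kdr added) with CT010467.1 left out of the totals and in DESeq2. Against tHet it was 1 (Kdr lost) with no filter on low values and 1 to 2 when libraries were left out.

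The changes of sign concerned values that passed no rule. Plvap against tHet was 0.058 with CT010467.1 left out of the totals. Between tHet and Cre-, edgeR and DESeq2 gave -0.023 and -0.026 for Cdh5 and -0.006 and -0.022 for Mfsd2a. With libraries left out, Tet tcKO against Cre- ran from -0.14 to 0.37 for Plvap and -0.13 to 0.27 for Vegfa, and Plvap against tHet from -0.32 to 0.24. Between tHet and Cre- the same ranges were -0.045 to 0.24 (Pecam1), -0.33 to 0.30 (Cdh5), -0.25 to 0.067 (Flt1), -0.21 to 0.14 (Tek), -0.11 to 0.45 (Plvap) and -0.15 to 0.38 (Mfsd2a). The causes were not tested.

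Over all genes, calls by the stricter rule for Tet tcKO against Cre- numbered 768 as reported, 417 with no filter, 1127 with the replicate block, and 331 to 982 with 1 library left out (331 without Tet tcKO replicate 1, 389 without Tet tcKO replicate 3, 423 without Cre- replicate 3), so the shares of called genes move with single libraries. Against tHet they were 640, and 252 (without Tet tcKO replicate 1) to 973 (without tHet replicate 3). With genotype means subtracted, same-numbered libraries of different genotypes had a mean r of 0.11 (-0.35 to 0.56, 9 pairs). Differently numbered libraries had a mean r of -0.0515 (-0.571 to 0.502, 18 pairs). These ranges overlap widely, so the correlations cannot decide whether equal numbers mark pairs. The numbers were not taken as pairs because nothing in the labels ties them. The replicate block changed no call among the 10 genes. Mfsd2a, Plvap, Cldn5 and Cdh5 rest on few reads, and 3 libraries per genotype limit the precision of all values.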
